A study of Mus musculus with 7 samples.

Results

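DNA topoisomerases cut and rejoin DNA to take out the twists and tangles that transcription, replication and chromosome segregation leave in it. The 5 nuclear topoisomerase genes Top1, Top2a, Top2b, Top3a and Top3b were followed here as RNA in sorted cells of the embryonic mouse retina, with most attention to the pair Top2a and Top2b. They were chosen by gene symbol, and are 5 of 16143 genes and 41 of 55404 transcripts in the tables. The choice was made with the knockdown comparison already known, since Top2b lay among the genes most raised in it, so levels and differences of these 5 genes are given as a description with no test.

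The shKmt2f group has 4 libraries, from retinas given a plasmid whose short hairpin RNA targets Kmt2f. That name is an alias of Setd1a, which encodes a histone H3 lysine 4 methyltransferase. The control group has 3 libraries, from retinas that received a control plasmid. In both groups the retinas came from ICR mice, an outbred stock, at embryonic day 17.5, an EGFP plasmid was given as well, and explants were kept for 2 days. EGFP-positive cells were then sorted, so each library mixes every retinal cell type that took up plasmid. The labels do not state whether each library had its own animal or culture, so every p-value measures library-to-library spread alone, and that spread may be technical.

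Type I enzymes cut a single strand and type II enzymes cut both. Top1 relaxes supercoils around moving polymerases. Top2a, a type II enzyme, is made in dividing cells, most of all from S phase to mitosis, and separates sister chromosomes. Top2b, its close relative, is kept in cells that have left the cycle, is known to be needed in developing neurons, and acts at long transcribed genes. Top3a unlinks recombination intermediates with the Blm helicase, and Top3b, with Tdrd3, can act on RNA as well as DNA. Dividing progenitors and newborn neurons occur side by side in the retina at this age, so both type II genes can be read in the same library.

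The promoters of the pair are shown because they differ in the motifs known from cell-cycle genes. Each window holds the 250 bases before the RefSeq start on GRCm38.p6, 5′ to 3′ on the gene's strand, with CCAAT boxes (CCAAT, or ATTGG on the other strand) in capitals. Top2a's is chr11:99024190-99024439 on the minus strand, and Top2b's is chr14:16364956-16365205 on the plus strand.
Top2a: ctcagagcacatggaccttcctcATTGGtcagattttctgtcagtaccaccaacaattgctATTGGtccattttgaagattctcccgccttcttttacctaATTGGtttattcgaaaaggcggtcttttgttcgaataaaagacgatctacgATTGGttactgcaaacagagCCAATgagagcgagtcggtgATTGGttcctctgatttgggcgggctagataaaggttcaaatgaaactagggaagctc
Top2b: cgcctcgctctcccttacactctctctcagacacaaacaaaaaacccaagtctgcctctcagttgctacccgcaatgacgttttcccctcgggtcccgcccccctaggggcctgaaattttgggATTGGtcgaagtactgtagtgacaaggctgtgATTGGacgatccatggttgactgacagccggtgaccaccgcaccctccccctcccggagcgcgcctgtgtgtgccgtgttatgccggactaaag

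The Top2a window holds 6 CCAAT boxes, 1 forward and 5 reverse, between 58 and 227 bases before the start. Among 32817 promoters of the same length, 33.8% hold at least 1 and 0.0579% hold as many. The Top2b window holds 2, both reverse, a number reached by 10.1% of promoters. TTTGAA, a form of the cell-cycle homology region, was found 2 times in Top2a's window, once on each strand, and 0 times in Top2b's, against at least 1 in 16.0% of promoters. Each window has 1 GGGCGG, the GC box, which is in 32.7% of promoters. Both strands were searched for every motif, and no match of a motif overlapped a match of another. The windows also differ in base composition, with 43.6% GC for Top2a and 57.6% for Top2b. These are letter matches and say nothing about whether a factor was bound.

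Before the values, the libraries themselves need a description. The hairpin's target was lower in its longest transcript. The 6487-base Setd1a transcript was at 0.385 ± 0.0451 TPM in shKmt2f and 0.830 ± 0.112 TPM in control libraries (SD, n = 4 and 3), 46.4% of the control mean. The shorter Setd1a transcripts, of 315, 389 and 730 bases, were at 74.2%, 92.4% and 80.8% of it, and their groups overlapped. They averaged 3.65, 2.54 and 0.357 TPM in shKmt2f and 4.92, 2.75 and 0.441 TPM in control libraries. TPM is a length-scaled share of a library's transcripts, and it keeps no depth, so the read number behind each value is unknown. The slope of log2 level on GC content across genes ran from -0.181 to -0.118 per 10% GC in shKmt2f libraries, against 0.248, -0.0438 and 0.407 in control replicates 1, 2 and 3. Control replicate 2 stood apart from the other controls, and its log2 profile correlated at 0.978 with shKmt2f replicate 3 and at 0.973 with control replicate 1, across genes, which are not independent replicates. It stood with the other controls in the 6487-base Setd1a transcript, at 0.959 TPM against 0.767 and 0.764 TPM. Among the shKmt2f libraries, replicates 1 and 2 correlated at 0.986 and replicates 3 and 4 at 0.988. Across these pairs the values were 0.975 to 0.978.

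Top2b had the higher RNA level of the pair in every shKmt2f library. Summed over its 8 transcripts, Top2b stood at 126, 148, 98.9 and 110.0 TPM in shKmt2f replicates 1 to 4, and at 14.8, 75.9 and 17.4 TPM in control replicates 1 to 3. The groups did not overlap, and control replicate 2 lay much nearer to the shKmt2f libraries than the other 2 controls did. The means were 120.6 ± 21.2 TPM in shKmt2f and 36.0 ± 34.6 TPM in control (SD, n = 4 and 3), a log2 fold change of 2.09 (SE 0.52) on the log2(TPM + 1) scale, above 99.9% of the 12456 genes tested. In sorted cells read in bulk, a different share of cells of a type and a different amount of RNA per cell cannot be told apart.

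Top2a overlapped between the groups. Its 7 transcripts summed to 26.5, 38.5, 31.2 and 39.5 TPM in shKmt2f libraries and to 25.2, 45.6 and 25.2 TPM in control libraries. The highest value of all 7 was in control replicate 2, and the lowest values were in the other 2 controls. Means were 33.9 ± 6.18 TPM in shKmt2f and 32.0 ± 11.8 TPM in control (SD, n = 4 and 3), and the log2 fold change was 0.12 (SE 0.23), beside a median of 0.09 over all genes. Its sign was not stable: with levels corrected for GC content it was -0.31, and without control replicate 1 or without control replicate 3 it was -0.02.

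**Figure D1:**
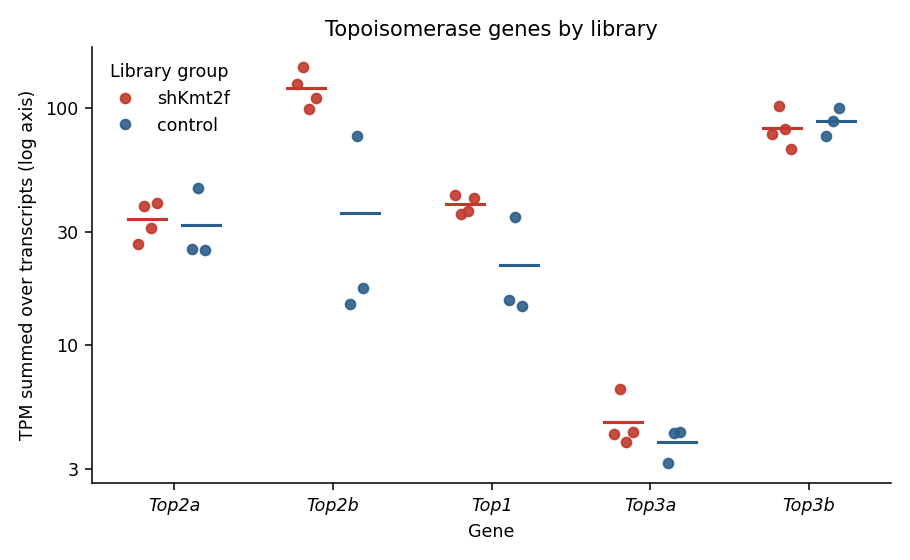
Level of each topoisomerase gene in each library, in TPM summed over its transcripts on a log axis, with points for the 4 shKmt2f and 3 control libraries and bars at the group means. Top2b is at 98.9 TPM or above in shKmt2f libraries and at 75.9 TPM or below in control libraries, while the Top2a ranges overlap.

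The ratio of Top2a to Top2b combines these values within each library. It was 0.211, 0.260, 0.315 and 0.359 in the shKmt2f libraries, and 1.70, 0.600 and 1.45 in the control libraries. Put as a share of their sum, Top2a made up 17.4% to 26.4% in shKmt2f and 37.5% to 63.0% in control. Top2a was thus the minor form in all shKmt2f libraries and in control replicate 2, and the major form in the other 2 controls. On the log2 scale the ratio averaged -1.83 ± 0.33 in shKmt2f and 0.19 ± 0.81 in control (SD, n = 4 and 3), a difference of -2.02. Leaving out each library in turn gave -1.73 to -2.48: it was -1.73 without control replicate 1, -1.85 without control replicate 3 and -2.48 without control replicate 2, and between -2.14 and -1.88 without a shKmt2f library.

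How much of the ratio's difference was seen depended on which transcripts were counted. A sum of TPM counts a short fragment transcript as much as a full-length one. When each transcript was weighted by its length the difference was -1.26, and with protein-coding transcripts only it was -1.53. With only the transcript of the longest coding sequence of each gene (a quantity added once the data had been seen), the ratio was 0.635, 0.888, 0.889 and 0.936 in shKmt2f and 1.83, 1.40 and 1.89 in control, a difference of -1.03. With GC-corrected sums the log2 ratio lay between -2.13 and -1.30 in shKmt2f and between -0.65 and 0.52 in control, a difference of -1.72. In each of these 5 forms every shKmt2f library lay below every control library, and the distance to control replicate 2 was always the shortest.

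**Figure D2:**
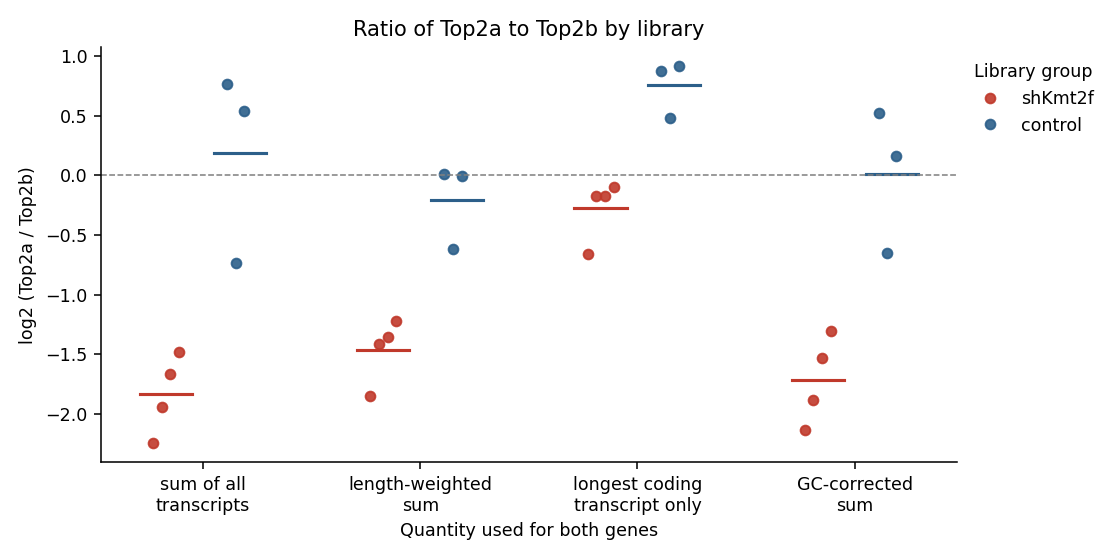
The log2 ratio of Top2a to Top2b in each library, computed from 4 quantities, with bars at the group means of 4 shKmt2f and 3 control libraries and a dashed line where both genes are equal. The difference between the group means is -2.02 for sums of all transcripts and -1.03 for the longest coding transcripts, and the groups do not overlap in any column.

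The 10335-base Top2b transcript, which encodes the full protein (ENSMUST00000017629), covers bases 16365179 to 16435462 of chromosome 14 (GRCm38, plus strand). It was at 23.3, 25.6, 18.3 and 21.5 TPM in shKmt2f and at 4.68, 15.1 and 5.10 TPM in control libraries. It held 17.3% to 31.6% of the gene's summed TPM, so most of the sum came from short transcripts. Of these, 4 were in the same order: a 671-base transcript with a retained intron, 658-base and 689-base transcripts that lie between 44.7 and 51.9 kb from the start, and a 1044-base one that ends 60.3 kb from it. The 671-base transcript averaged 33.5 ± 6.42 TPM in shKmt2f and 9.14 ± 7.08 TPM in control, and the 689-base one 23.4 ± 4.34 and 5.49 ± 8.17 TPM in the same groups (SD, n = 4 and 3). All bases of the 658-, 689- and 1044-base transcripts are also exons of the full-length one, so reads there could be assigned to either. The remaining 3 transcripts, all with retained introns, were at 1.20 TPM or below in every library, and their groups overlapped.

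The Top2a transcripts did not all lie in the same order. Its 5221-base full-length transcript (ENSMUST00000068031), on chromosome 11 from 98992943 to 99024189 on the minus strand, was at 14.8, 22.7, 16.2 and 20.1 TPM in shKmt2f and at 8.57, 21.1 and 9.61 TPM in control libraries. The groups overlapped through control replicate 2, while the other 2 controls lay below every shKmt2f library. Short non-coding transcripts at both ends of the gene lay the other way. A 632-base transcript within 2.10 kb of the start was at 2.65, 3.64, 4.85 and 5.01 TPM in shKmt2f and at 6.52, 7.27 and 7.12 TPM in control libraries. At the 3′ end, a 796-base transcript averaged 2.33 ± 0.37 TPM in shKmt2f and 3.51 ± 0.48 TPM in control, and an 803-base transcript 0.893 ± 0.346 and 2.64 ± 0.95 TPM in the same groups (SD, n = 4 and 3). For these 3 transcripts every shKmt2f library was below every control library, control replicate 2 included. A 970-base transcript from the middle of the gene, 17.7 to 20.6 kb from the start, followed the full-length one, with 4.92 to 9.16 TPM in shKmt2f against 1.80, 9.67 and 1.73 TPM in control libraries. Top2a's even sum therefore adds a full-length transcript with a higher mean in shKmt2f and end fragments with lower means there.

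**Figure D3:**
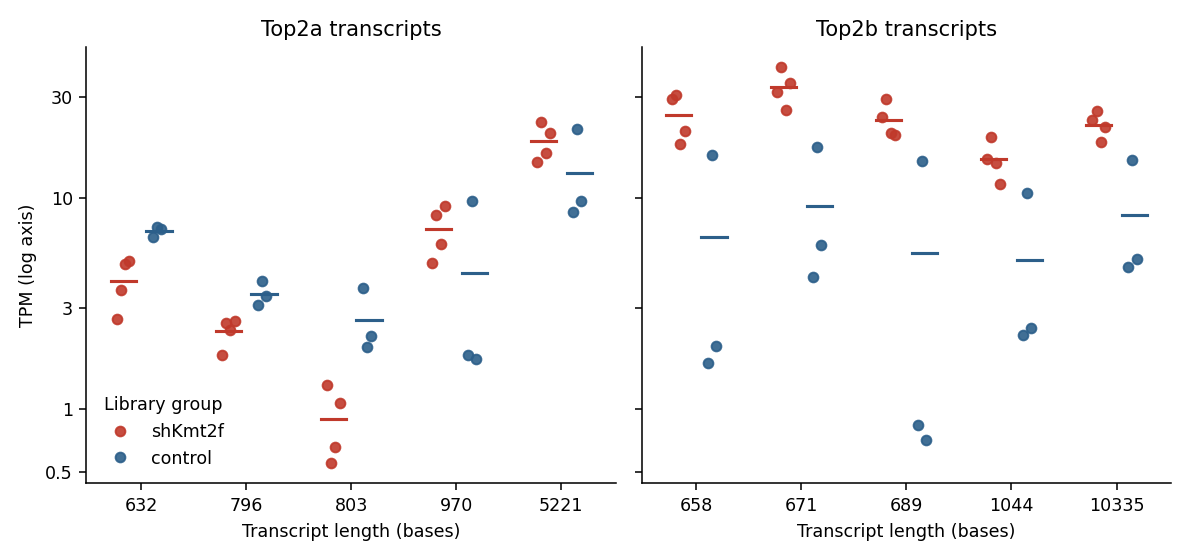
TPM, on a log axis, of the Top2a and Top2b transcripts that reach 1 TPM in at least 3 libraries, labelled by length, with points for the 4 shKmt2f and 3 control libraries and bars at the group means. The Top2b transcripts of 10335, 671, 658, 689 and 1044 bases are higher in every shKmt2f library, and the Top2a transcripts of 632, 796 and 803 bases are lower in every one.

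Over all 5 genes, 28 of the 41 transcripts reached 1 TPM in at least 3 libraries. Of these, 7 were higher in every shKmt2f library than in any control library, 5 from Top2b and 2 from Top1, and 4 were lower, 3 from Top2a and 1 from Top3b. Among 37024 transcripts that reached the same level, 14.6% were higher in every shKmt2f library and 6.97% lower, and nothing is read from the member counts beside these shares.

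Composition of the genes followed these differences only in part. The GC content of Top2b RNA, weighted by transcript level, was 38.0%, lower than that of all but 1.33% of genes. Top1 followed with 42.1%, Top2a with 43.5%, Top3b with 52.3% and Top3a with 52.7%. The members with the lowest GC, Top2b and Top1, had the highest log2 fold changes, at 2.09 and 0.93. Beyond them the order did not hold: Top3a, with the highest GC, was at 0.21, above Top2a at 0.12 and Top3b at -0.11. Control replicates 1 and 3, where Top2b was lowest, were those whose slope on GC was positive. The slope of log2 level on transcript length was 0.0020 to 0.107 per doubling in shKmt2f libraries and -0.131, -0.0212 and -0.0236 in control replicates 1 to 3. After correction for GC within each library, Top2b was at 102, 119, 83.2 and 85.0 TPM in shKmt2f and at 24.1, 69.1 and 28.7 TPM in control libraries. The groups still did not overlap, and the log2 fold change was 1.38. The correction is a fit over all genes and cannot separate GC content from genes of low GC that differ for another reason, and the part of composition in the Top2b difference was not tested.

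**Figure D4:**
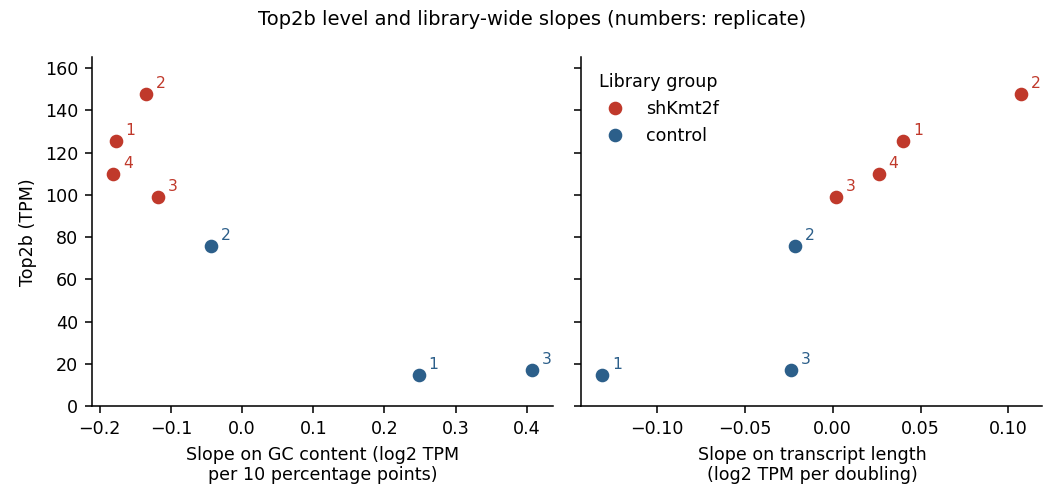
Level of Top2b in each library (summed TPM) against that library's slope of log2 level on gene GC content, per 10% GC (left), and on transcript length (right), with replicate numbers beside the points. The 4 shKmt2f libraries have slopes from -0.181 to -0.118 and the highest Top2b, control replicate 2 has a slope of -0.0438 and 75.9 TPM, and the other 2 controls have positive slopes and 14.8 and 17.4 TPM.

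Top1, on chromosome 2 from 160645888 to 160722764 (plus strand), resembled Top2b with a smaller difference. Its sum was 42.7, 35.5, 36.5 and 41.5 TPM in shKmt2f and 15.5, 34.7 and 14.6 TPM in control libraries. The groups were apart only by the gap between shKmt2f replicate 2 and control replicate 2. Means were 39.1 ± 3.59 TPM in shKmt2f and 21.6 ± 11.3 TPM in control (SD, n = 4 and 3), a log2 fold change of 0.93 (SE 0.27). With GC correction it was 0.43 and the groups overlapped. The 3856-base coding transcript carried most of the difference, at 23.3, 19.7, 18.9 and 18.4 TPM in shKmt2f and at 4.60, 17.9 and 3.79 TPM in control libraries. A 698-base transcript with a retained intron averaged 10.4 ± 2.15 TPM in shKmt2f and 7.02 ± 2.49 TPM in control (SD, n = 4 and 3). It shares stretches with 16 of 1727 pseudogene transcripts searched, so its level is uncertain.

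The type IA genes lay closer together. Top3a, on chromosome 11 from 60740058 to 60777365 (minus strand), was the lowest member, with 4.23, 6.52, 3.91 and 4.28 TPM in shKmt2f and 3.16, 4.24 and 4.31 TPM in control libraries. Top3b, on chromosome 16 from 16870736 to 16892990 (plus strand), was at 77.3, 101.1, 81.0 and 66.9 TPM in shKmt2f and at 75.9, 87.8 and 99.1 TPM in control libraries. The groups overlapped for both, and the log2 fold changes were 0.21 (SE 0.19) for Top3a and -0.11 (SE 0.16) for Top3b. Of Top3a's 6 annotated transcripts 4 were in the tables, and of Top3b's 20 there were 16, and the others were not analysed here. Top3b's transcript with the longest coding sequence was among those missing, so its level, rank and fold change come without it. The protein-coding transcript that held most of that sequence, 76.2%, was at 0.262 TPM or below in every library. Top3b's transcripts in the tables were 359 to 3511 bases long, and a 387-base transcript alone made up 22.6% to 34.0% of its sum.

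Ranked by summed TPM, the shKmt2f order was Top2b, Top3b, Top1, Top2a and Top3a. Top2b was above Top3b in 4 of 4 shKmt2f libraries although their ranges overlapped, and the ranges of Top1 and Top2a overlapped as well. In control libraries the order was Top3b, Top2b, Top2a, Top1 and Top3a. There the neighbours Top3b and Top2b, Top2b and Top2a, and Top2a and Top1 had overlapping ranges, and Top2b was above Top2a in 1 of 3 libraries. Only Top3a was apart from its neighbour in both groups. With each transcript weighted by its length, in kilobases times TPM, the order was another: Top2b (303), Top2a (110.8), Top1 (105), Top3b (75.4) and Top3a (15.8) in shKmt2f, and Top2b (108.8), Top2a (85.2), Top3b (81.6), Top1 (54.4) and Top3a (11.4) in control. Top3b's high place by TPM rests on its short transcripts.

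In the limma fit over all genes, 1 of the 5 genes, Top2b, was past an adjusted p of 0.05, and 14.1% of all genes tested were. Between groups, 2 of the 5, Top2b and Top1, did not overlap, against 28.9% of all genes. Because these genes were chosen with this comparison known, the calls are no test of them. Nothing is read from either count, or from the member counts with a library left out. The median log2 fold change was 0.21 over the 5 genes and 0.09 over all. Leaving out any 1 library other than control replicate 2 left 0 of the 5 past the threshold, when 2.26% to 4.05% of all genes were past it. Without control replicate 2 both Top2b and Top1 were past it, as were 24.3% of all genes.

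The genes whose log2 levels followed Top2b most closely over the 7 libraries, out of 8842 candidates, were Slc25a4, Gpm6a, Ints8, B230219D22Rik and Pbrm1, with Pearson's r between 0.998 and 0.999. Those closest to Top2a were Chd2, Ckap2l, Txnl1, Esco2 and Trim59, with r between 0.96 and 0.97. Top1 had an r of 0.97 with Top2b, while Top2a had an r of 0.61 with Top2b. These are descriptions over 7 libraries that share 2 groups and a spread in base composition. Pearson's r does not measure the size of a difference. The log2 fold changes of the genes closest to Top2b ran from 0.16 (Slc25a4) to 1.40 (B230219D22Rik), beside 2.09 for Top2b. The Top2a set was led by control replicate 2: Esco2 was at 13.2, 26.9, 19.2 and 25.7 TPM in shKmt2f and at 16.3, 35.5 and 11.4 TPM in control libraries.

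Proteins that work beside topoisomerases could be tested for 13 of 16 listed genes, of which 3 rose in shKmt2f and 0 fell, with 0 lower also at an unadjusted p under 0.05 in limma. Those risers are 23.1% of the list, beside 10.4% of all genes, and the median log2 fold change was 0.41, or 0.12 with GC correction. Tdrd3, the partner that brings Top3b to its targets, averaged 15.7 ± 0.36 TPM in shKmt2f and 8.60 ± 2.61 TPM in control (SD, n = 4 and 3), a log2 fold change of 0.83 (limma adjusted p = 0.0266). The RNA-binding proteins Fxr2 and Fxr1, relatives of Fmr1, were the other risers, with log2 fold changes of 0.46 and 0.72 (limma adjusted p = 0.0332 and 0.0358). Blm and Rmi1, which act with Top3a, did not pass the test, with log2 fold changes of 0.38 (SE 0.32) and 0.51 (SE 0.25). Topors, a ubiquitin and SUMO ligase that binds Top1, was at 0.85 (SE 0.25) and did not pass either.

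Repair of DNA with a topoisomerase bound to it could be tested for 20 of 22 listed genes, of which 2 rose and 0 fell in the limma fit, while 3 were lower at an unadjusted p under 0.05. The share that rose is near the 10.4% of all genes, and the median was 0.36, or 0.05 with GC correction. Zfp451, a SUMO ligase that acts on trapped Top2 together with Tdp2, averaged 27.6 ± 3.34 TPM in shKmt2f and 15.6 ± 3.93 TPM in control (SD, n = 4 and 3), with a log2 fold change of 0.80 (limma adjusted p = 0.0300). Tdp2, which removes Top2 from broken ends, averaged 45.1 ± 2.95 TPM in shKmt2f and 30.4 ± 5.50 TPM in control, with a log2 fold change of 0.57 (limma adjusted p = 0.0345). With protein-coding transcripts only, Tdp2 was at -0.46 (limma adjusted p = 0.0476), the opposite direction. Tdp1, which acts on trapped Top1, was at -0.21 (SE 0.13) and did not pass. With GC correction 0 genes of the list were higher and 1 was lower.

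Chromosome-axis proteins that share mitotic chromosomes or loop anchors with the type II enzymes were 17 genes, of which 1 rose and 3 fell, or 5.88% and 17.6%, beside 10.4% and 3.69% of all genes. The median was 0.37, or 0.16 with GC correction. The condensin subunits Ncapd2 and Ncaph2 fell, Ncapd2 to 50.2 ± 11.1 TPM in shKmt2f, against 98.8 ± 25.7 TPM in control (SD, n = 4 and 3; log2 fold change -0.96, limma adjusted p = 0.0281). Hmgb2, a DNA-bending protein, fell by 0.66 on the log2 scale (limma adjusted p = 0.0304). Stag1, a cohesin subunit, rose with a log2 fold change of 0.69 (limma adjusted p = 0.0373). The condensin ATPase gene Smc4 stood at 47.4, 47.3, 44.8 and 62.6 TPM in shKmt2f and at 16.1, 59.5 and 18.7 TPM in control libraries, with control replicate 2 again among the shKmt2f values, and did not pass.

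S to M phase genes, the set in whose company Top2a is usually read, were 26, of which 12 fell and 0 rose, and 0 were higher at an unadjusted p under 0.05 in limma. Those that fell are 46.2% of the list, beside 3.69% of all genes. The list's median log2 fold change was -0.62, while that of Top2a was 0.12. With GC correction these values were -0.70 and -0.31. Top2a was not alone in its place: 6 of the 26 genes were above 0 and 20 below. Bub1, Anln and Cenpe were at 0.13 (SE 0.35), 0.12 (SE 0.37) and 0.10 (SE 0.25). Cdc20, the activator of the anaphase-promoting complex, was at 89.8, 121.8, 105.2 and 122.4 TPM in shKmt2f and at 295, 253 and 325 TPM in control libraries (log2 fold change -1.40, limma adjusted p = 0.00322). Here the groups were far apart and control replicate 2 stood with its own group. The mitotic cyclins Ccnb2 and Ccnb1 fell by 1.47 and 1.40 on the log2 scale, and Ube2c, a ubiquitin-conjugating enzyme of mitotic exit, fell by 1.17 (limma adjusted p = 0.00617 for both cyclins and 0.00605 for Ube2c). The 14 members that did not pass included Kif11 at 0.60 (SE 0.38) and Mki67 at -0.31 (SE 0.37). Promoters with a CCAAT box were 18 of the 22 matched for this list, or 81.8%, beside 65.0% for the postmitotic neuron list (20 promoters of 10 genes), 50.0% for axis proteins, 42.9% for partners, 38.9% for repair genes and 33.8% of all promoters. The other motifs were not most frequent in this list. TTTGAA was in 31.8% of its promoters, beside 43.75% for axis proteins and 16.0% of all. GGGCGG was in 77.3%, beside 85.7% for partners, 81.25% for axis proteins and 32.7% of all.

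Genes of postmitotic neurons, the cells in which Top2b is known to be kept, could be tested for 18 of 20 listed, of which 7 rose and 2 fell. These are 38.9% and 11.1% of those tested, beside 10.4% and 3.69% of all genes, and the list's median was 0.43. Map2, a microtubule protein of dendrites, averaged 43.4 ± 7.43 TPM in shKmt2f and 14.2 ± 6.39 TPM in control (SD, n = 4 and 3; log2 fold change 1.61, limma adjusted p = 0.0129). Gap43, a growth cone protein, rose with a log2 fold change of 1.01 (limma adjusted p = 0.0153). Ncam1, an adhesion molecule, and Mapt, the axonal protein tau, fell by 0.61 and 0.96 on the log2 scale (limma adjusted p = 0.0170 and 0.0187). Nefl, a neurofilament gene among the 7, was under 1 TPM in 2 of 3 control libraries and so reached the level needed for testing through shKmt2f. Tubb3, a tubulin of neurons, was at -0.08 (SE 0.10) and did not pass.

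Top2b is known to act at long genes, so genes spanning at least 100 kb were counted as well. Of 1620 tested, 231 rose and 16 fell, which is 14.3% and 0.988%, beside 10.4% and 3.69% of all genes, and their median log2 fold change was 0.26. With GC correction 126 rose and 41 fell, the median was 0.10, and 5.16% of all genes rose and 5.13% fell.

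**Figure D5:**
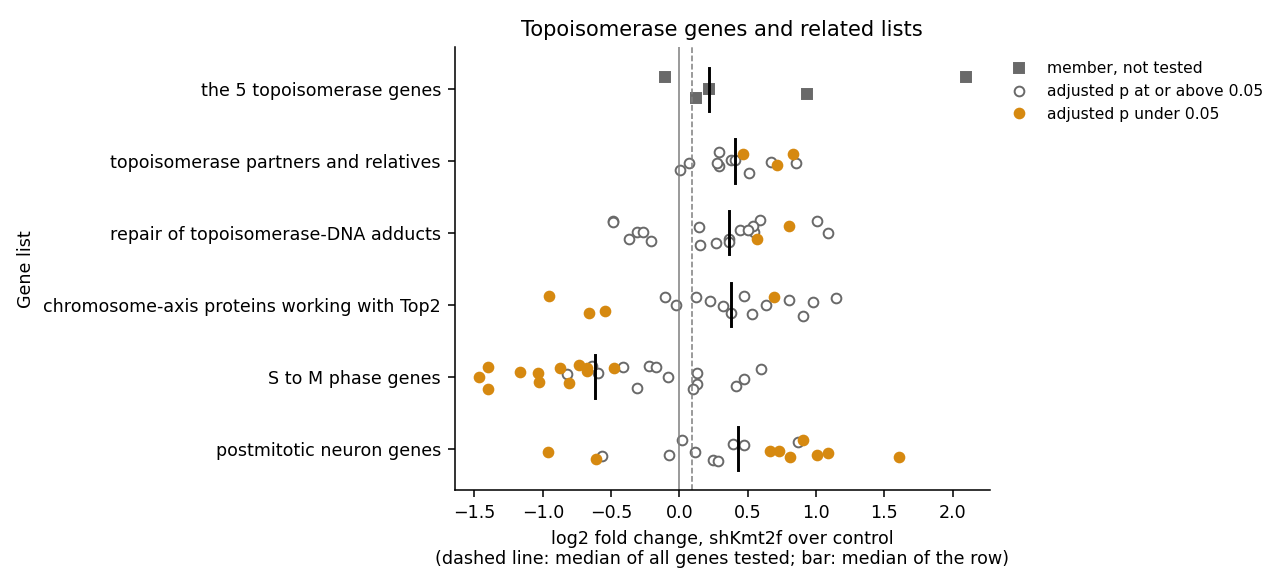
The log2 fold change, shKmt2f over control, of each tested gene in 5 lists and of the 5 topoisomerase genes (squares, with no test), with a bar at each row's median and a dashed line at the median of all genes, 0.09. Filled circles have a limma adjusted p under 0.05. Of the 26 S to M phase genes, 12 are filled and all are lower. Of the 18 postmitotic neuron genes, 7 are filled and higher, with 2 lower. Over all genes tested, 10.4% were higher and 3.69% lower.

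These list counts rest on all 7 libraries. The share of all genes called changed as well. Without any 1 library other than control replicate 2, 1.16% to 2.67% of all genes were higher and 1.08% to 1.61% lower. Without control replicate 2, 19.6% were higher and 4.70% lower. Without control replicate 1, control replicate 3, or any shKmt2f replicate, 0 partners were higher, 0 axis proteins were higher, and 0 repair genes were higher except 1 without shKmt2f replicate 4. Lower axis proteins were 0 when control replicate 3, shKmt2f replicate 1 or shKmt2f replicate 3 was left out, 1 when control replicate 1 or shKmt2f replicate 4 was, and 1 with all libraries but protein-coding transcripts only. Lower S to M phase genes were 5 when control replicate 1 or 3 was left out, 7 when shKmt2f replicate 1 was, and 6 when shKmt2f replicate 2 or 3 was. Higher neuron genes were 1 when control replicate 1 or 3 was left out, 2 when shKmt2f replicate 1 or 2 was, and 3 when shKmt2f replicate 3 or 4 was. Genes of at least 100 kb that rose were 37 without control replicate 1, 46 without control replicate 3, and 36, 39, 77 and 67 without shKmt2f replicates 1 to 4. Without control replicate 2 the higher genes were 7 partners, 7 repair genes, 7 axis proteins, 10 neuron genes, 426 genes of at least 100 kb and also 3 S to M phase genes, while 10 S to M phase genes were lower. Cdc20, Ube2c, Ccnb2, Ccnb1 and Map2 were past the threshold in each of these 7 fits. Gap43 lost its call without control replicate 1 or 3, Ncam1 without control replicate 3 or shKmt2f replicate 1, and Mapt without control replicate 1, control replicate 3 or shKmt2f replicate 2. With GC correction the calls of Fxr1, Zfp451, Tdp2 and Stag1 were lost, and with protein-coding transcripts only those of Fxr2, Ncapd2, Ncaph2 and Stag1.

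Markers of retinal cell types were counted in the same fit, in which 10.4% of all genes were higher and 3.69% lower. Within most lists the members differed among themselves. Ganglion cell markers could be tested for 6 of 12 genes, all called higher, with summed levels of 45.2 to 52.3 TPM in shKmt2f against 19.3 to 28.6 TPM in control. Nefl and Isl1, both among these 6, reached the level needed for testing only with shKmt2f libraries, so the 6 are no measure of the whole list. Isl1 was at 0.720, 1.35 and 1.99 TPM in control libraries. With no filter on low values 7 of 12 were higher and the median was 0.46, against 0.97 with the filter. Nefl, Nefm and Gap43 are also in the neuron list, among its 7 higher genes, so the lists are not separate. Photoreceptor precursor markers were higher for 3 of 9 (33.3%) and lower for 0, also at an unadjusted p under 0.05 in limma, but their median log2 fold change was -0.01 and 5 of 9 were below 0. Their sums of 693 to 917 TPM in shKmt2f against 448 to 555 TPM in control were carried by Otx2, Crx and Prdm1.

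Neurogenic progenitor markers were higher for 3 of 11 (27.3%) and lower for 1 (9.09%, and 3 at an unadjusted p under 0.05), with a median of -0.23 and 7 of 11 below 0. Their sums of 2610 to 2860 TPM in shKmt2f against 1951 to 2577 TPM in control were carried by Neurod4 (684.9 ± 94.5 and 230.9 ± 95.2 TPM in those groups) and Neurod1 (434.1 ± 65.5 and 164.5 ± 64.5 TPM, SD, n = 4 and 3). Atoh7, also in these sums, varied widely within groups. It was at 20.4, 37.3, 429 and 428 TPM in shKmt2f replicates 1 to 4 and at 99.0, 101 and 312 TPM in control libraries. Progenitor markers were lower for 2 of 13 (15.4%) and higher for 0 (1 at an unadjusted p under 0.05), with a median of -0.32 and sums of 1072 to 1228 TPM in shKmt2f against 1238 to 1569 TPM in control. Amacrine and horizontal cell markers had a median of 0.15 beside 0.09 for all genes, and sums of 193 to 220 TPM in shKmt2f against 174 to 189 TPM in control. Of the 2 called higher among 10 (20.0%), Tfap2b was at 25.5 TPM or above in every library, while Onecut1 was under 1 TPM in all 3 control libraries and reached the level needed for testing through shKmt2f.

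Leaving out 1 library changed some of these counts more than others. Over all such fits, 3 to 4 neurogenic progenitor markers were higher and 0 to 1 lower. Progenitor markers were lower for 2 to 3 and higher for 0 to 1. Of all genes, 1.16% to 19.6% were higher and 1.08% to 4.70% lower in the same fits. The other lists lost more calls. In the fits without any 1 library other than control replicate 2, 1.16% to 2.67% of all genes were higher. Higher ganglion cell markers were 0 without control replicate 1, 1 without control replicate 3, and 2, 2, 3 and 2 without shKmt2f replicates 1 to 4. Higher photoreceptor precursor markers were 1 when control replicate 1, control replicate 3 or any of shKmt2f replicates 1 to 3 was left out, and higher amacrine and horizontal cell markers were 0 in those fits, except 1 without shKmt2f replicate 3, and 0 without shKmt2f replicate 4. The part of cell composition in the topoisomerase levels was not tested.

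Cells from outside the neural retina were represented by few measured markers. Of 7 endothelial genes, 3 were in the tables and the other 4 were not analysed here, and Pecam1, 1 of the 3, was too low to be tested. Kdr, a receptor of vascular growth factor, was at 55.8 to 83.4 TPM in shKmt2f and 40.8 to 76.3 TPM in control, and Cldn5, a tight junction protein, at 15.5 to 25.2 TPM in shKmt2f and 21.5 to 28.6 TPM in control. Neither passed, also at an unadjusted p under 0.05. The single microglial gene in the tables was at 0.816 to 1.54 TPM in shKmt2f and 0.350 to 1.10 TPM in control. Pigment epithelium markers summed to 5.67 to 7.62 TPM in shKmt2f and 3.80 to 4.42 TPM in control, and the 1 gene tested, Dct, rose, a call lost without any 1 library other than control replicate 2. Lens markers summed to 0.827 to 1.68 TPM in shKmt2f and 0.746 to 1.41 TPM in control, and astrocyte markers to 0.302 to 0.542 TPM in shKmt2f and 0.0405 to 0.950 TPM in control. The 6 erythroid markers were not analysed here.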

How the data were processed

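Transcript levels in TPM were deposited by the authors, in a table for each library. Salmon 0.11.3, sleuth 0.30.0 and build GRCm38.p6 are named in the submitters' processing notes. Per the file headers, every table repeats the authors' q-value and p-value of each transcript. The tables also repeat the authors' effect, whose values are on a natural log scale, and these columns gave no result here. Total RNA (1 ng) was turned into cDNA with SMART-Seq v4, per the labels' protocols. Each table has 55475 rows, 71 without TPM.

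TPM was summed per gene identifier, and the rows of the members were picked by symbol. GENCODE M21 (GRCm38) gave positions, lengths and transcript types. The 12456 genes reaching 1 TPM in 3 or more libraries were fitted together on log2(TPM + 1) with limma 3.58.1 (R 4.3.3), shKmt2f against control, with a mean-variance trend, robust moderation and Benjamini-Hochberg adjustment at 0.05. GC correction used a loess of span 0.3 on level-weighted gene GC content, within each library. Promoters came from RefSeq on GRCm38.p6, and pseudogenes were searched with blastn 2.17.0 at 90% identity. TPM keeps no sequencing depth, so no counting interval is given.

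The members, gene lists and tests were chosen with earlier results of these data known. From each list the text names up to 4 genes past the threshold with the smallest adjusted p, and further members as examples chosen after their values were seen. The 5 genes most like Top2a or Top2b are protein-coding, average 5 TPM or more, and have the highest Pearson's r on log2(TPM + 1). Alternatives were another scaling, no filter, a pseudocount of 0.1, GC correction, protein-coding transcripts only, length-weighted sums, a replicate block and leaving out each library.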

Additional observations from a re-analysis of the deposited data

Results flagged for a closer look

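Among 100 sets of 4 shKmt2f values examined, 7 had a library far from the other 3, by the gap to its nearest neighbour over the whole range (Dixon's ratio, past its 95% critical value), and chance alone gives about 1 in 20. Top3a's sum was highest in shKmt2f replicate 2, at 6.52 TPM (ratio 0.855). The log2 ratio of Top2a to Top2b in their longest coding transcripts was lowest in shKmt2f replicate 1, at -0.66 (ratio 0.865). The 2849-base Top2a transcript was highest in shKmt2f replicate 4, at 1.18 TPM (ratio 0.847). For Top3b, the 456-base transcript was at 1.02 TPM in shKmt2f replicate 2 and listed at 0 in the other 3 (ratio 1), the 3508-base transcript was lowest in shKmt2f replicate 3, at 1.35 TPM (ratio 0.955), and the 3511-base transcript was highest in shKmt2f replicate 4, at 0.595 TPM (ratio 0.906). Dct, a marker of pigment epithelium, was lowest in shKmt2f replicate 1, at 5.34 TPM (ratio 0.844). Groups of 3 were not examined, so the control libraries have no such entry.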

How the results depend on the processing

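The log2 fold change of Top2b was above 0 under every alternative run, from 1.38 with GC correction to 2.82 without control replicate 2. Top1 was at 0.43 with GC correction and 1.39 with protein-coding transcripts only, Top2a at -0.31 and 0.55 in the same fits, and Tdp2 reversed to -0.46 with protein-coding transcripts only. The Top2a to Top2b log2 ratio differed by -1.26 with length-weighted sums and by -1.03 with the longest coding transcripts only, which was added once the data had been seen. Over all genes 1755 were called, 1295 of them higher, against 1120 higher of 1946 with median-ratio scaling, which moved the median fold change to -0.02, and 643 of 1282 with GC correction. Leaving out each library gave 282 to 3024 calls.

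In the lists, repair genes were higher for 1 with median-ratio scaling, 0 with GC correction and 1 with coding transcripts only, and lower for 2, 1 and 1 in these fits. Axis proteins were higher for 0 with GC correction and 3 with length weighting, and lower for 1 with coding transcripts only. Lower neuron genes were 1 with length weighting. Genes of at least 100 kb were higher for 126 and lower for 41 with GC correction, and lower for 35 with median-ratio scaling. Leaving out each library gave 0 to 7 higher partners, 0 to 7 higher repair genes, 0 to 7 higher and 0 to 3 lower axis proteins, 0 to 3 higher and 5 to 10 lower S to M phase genes, 1 to 10 higher and 0 to 2 lower neuron genes, and 36 to 426 higher and 1 to 20 lower long genes. In the same fits 1.16% to 19.6% of all genes were higher and 1.08% to 4.70% lower. The cause of each change was not tested.

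Whether replicate numbers pair the libraries is not settled. Same-numbered deviations from the group means correlated at 0.0793, 0.0651 and 0.0597, and differently numbered ones at -0.169 to 0.0976. Groups of 3 and 4 libraries are too small for these values to decide it. With the replicate block, which leaves shKmt2f replicate 4 without a partner and so without weight, 1377 genes were called, 0 of the 5 topoisomerase genes, 1 higher partner, 4 higher axis proteins and 4 higher neuron genes, and the Top2b log2 fold change was 2.13. Unknown depth limits how firmly transcripts near 1 TPM can be read.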
